A study of Mus musculus with 6 samples.

Results

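Aminoacyl-tRNA synthetases join each amino acid to its tRNA, the step that supplies charged tRNA to the ribosome. The 39 genes described here are the 20 cytosolic synthetase genes, 3 genes of the scaffold proteins that hold many of the cytosolic enzymes in a complex (Aimp1, Aimp2 and Eef1e1), and 16 nuclear genes of the mitochondrial enzymes, whose symbols end in 2. They were chosen by name from a list, found by identifier among the 25044 genes of the count table, and all 39 had enough reads to be tested. The symbol Mars1 stands for the gene that the annotation calls Mars. The cytosolic Tarsl2 is not on this list and is described with related genes.

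Both groups were peritoneal macrophages of wild type C57BL/6 mice aged 8 weeks, elicited with thioglycollate 3 days before collection, purified by adhesion and exposed to LPS, a bacterial ligand of TLR4, at 100 ng/ml for 12 h. The trametinib + LPS group (3 libraries) received 100 nM of trametinib, an inhibitor of the ERK-activating kinases MEK1 and MEK2, for 2 h before LPS, and the vehicle + LPS group (3 libraries) received DMSO. The study names 3 mice and does not say which mouse gave which library, so p values reflect only how far these libraries spread, which may be a technical spread. No culture without LPS was analysed here. Ribosomal-RNA-depleted RNA was sequenced, and library totals ran from 17453778 to 19648467 counts.

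Cells of higher eukaryotes carry separate synthetases for cytosolic and mitochondrial translation, with a few genes, such as Kars and Gars, serving both compartments. In mouse cells short of amino acids or under stress in the endoplasmic reticulum, phosphorylation of eIF2 raises translation of the transcription factor ATF4, which binds and activates many cytosolic synthetase genes together with genes of amino acid synthesis and uptake. Wars, the tryptophanyl enzyme, is the member known as an interferon-induced gene.

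The libraries were rich in macrophage transcripts. All 10 macrophage markers were detected and summed to 15128 to 16826 CPM in trametinib libraries and 16152 to 18021 CPM in vehicle libraries, where CPM are counts scaled by the normalised library size. Markers of B cells, neutrophils, eosinophils and mast cells, and of fibroblasts and mesothelium each summed to at most 10.5 CPM in any library, and Mcpt4 and Msln were at 0. The 6 dendritic cell markers summed to 13.4 to 24.9 CPM with trametinib and 2.47 to 8.48 CPM with vehicle, and the 8 T and NK cell markers to 16.3 to 25.5 CPM and 10.6 to 17.5 CPM. With trametinib, 2 of the 10 macrophage markers were called higher and 2 lower, beside 15.8% and 18.4% of all genes tested. No marker outside the macrophage list was called, and the part of other cells in the results that follow was not tested. In such bulk RNA, fewer cells of a type and less RNA per cell cannot be told apart. Vehicle replicate 3 stood apart from its group: on a first principal component with 68.8% of the variance it was at 16.2, beside 39.3 and 38.1 for the other vehicle libraries, while trametinib libraries were at −31.7, −35.5 and −26.4.

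Most cytosolic synthetase genes were lower with trametinib, and fewer of the mitochondrial ones were. Of 20 cytosolic synthetase genes 17 fell, 1 rose (Wars) and 2 did not pass (Kars and Qars), by edgeR's quasi-likelihood test at an adjusted p under 0.05. Of the 3 scaffold genes 2 fell, and of the 16 mitochondrial genes 6 fell and none rose. With any single library left out, cytosolic fallers numbered 17, scaffold fallers 1 to 2 and mitochondrial fallers 4 to 6. Scaffold fallers numbered 2 only without vehicle replicate 3. Mitochondrial fallers numbered 4 without trametinib replicate 1, vehicle replicate 1 or vehicle replicate 2, and 5 without trametinib replicate 2. Among all 11286 genes tested, 18.4% fell and 15.8% rose. The median log2 fold change (trametinib over vehicle) was −0.62 over the cytosolic synthetases, −0.62 over the scaffold genes and −0.19 over the mitochondrial synthetases, beside −0.01 over all genes tested. The cytosolic log2 fold changes ran from −1.05 to 0.40 and the mitochondrial ones from −0.95 to 0.11. The trametinib libraries all lay below the vehicle libraries for 17 cytosolic, 2 scaffold and 7 mitochondrial genes, and all above them for Wars and the mitochondrial Fars2. Such separation was seen downward in 25.9% and upward in 23.4% of all genes tested.

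**Figure D1:**
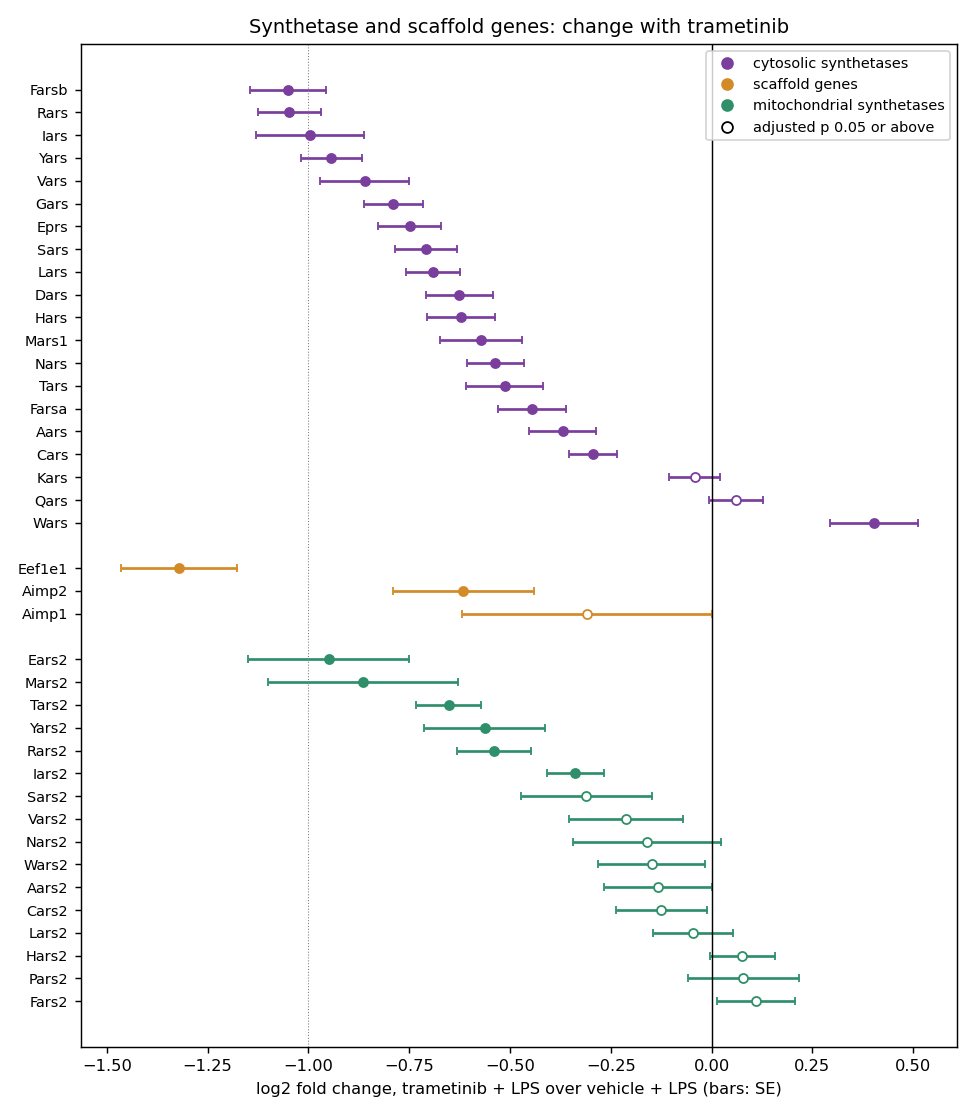
Log2 fold change (x axis, trametinib + LPS over vehicle + LPS, bars are the standard error) of each of the 39 genes (y axis), sorted within cytosolic synthetases, scaffold genes and mitochondrial synthetases. Filled points passed an adjusted p of 0.05. Of the 20 cytosolic points 17 are filled and left of 0, while 10 of the 16 mitochondrial points are open.

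Within the multisynthetase complex, 6 of the 8 enzyme genes fell. Rars, the arginyl enzyme (mm10 chromosome 11, 35808381 to 35834506), had 70.4, 69.8 and 68.2 CPM in trametinib libraries, against 151, 152 and 128 CPM in vehicle libraries. These groups lay far apart, with a fold change of 0.484 (log2 fold change −1.05, SE 0.08, adjusted p 0.000141). Iars, the isoleucyl enzyme (chromosome 13, 49682100 to 49734267), had 29.6, 28.6 and 40.9 CPM with trametinib and 62.7, 65.7 and 69.2 CPM with vehicle. The highest trametinib library of Iars was still below the lowest vehicle library (log2 fold change −0.996, SE 0.13, adjusted p 0.00120). Eprs encodes a fused enzyme for glutamate and proline and, in human myeloid cells, a part of the GAIT complex that silences inflammatory mRNAs after interferon gamma. It averaged 108 ± 9.27 CPM with trametinib and 182 ± 1.68 CPM with vehicle (SD, n = 3 each; log2 fold change −0.75, adjusted p 0.000412). Lars, the leucyl enzyme, Dars, the aspartyl enzyme, and Mars1, the methionyl enzyme, had log2 fold changes of −0.69, −0.63 and −0.57 and all fell (adjusted p of 0.000299, 0.000910 and 0.00317).

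Kars and Qars, the lysyl and glutaminyl enzymes of the same complex, did not pass. Kars had 77.3, 79.0 and 75.2 CPM in trametinib libraries and 75.4, 82.8 and 80.1 CPM in vehicle libraries. Qars had 73.7, 81.9 and 76.4 CPM in trametinib libraries and 75.3, 76.6 and 70.6 CPM in vehicle libraries. The groups overlapped for both genes. The log2 fold change was −0.04 for Kars (95% interval −0.19 to 0.10, adjusted p 0.634) and 0.06 for Qars (95% interval −0.09 to 0.21, adjusted p 0.518). Both intervals lie above the log2 fold change of every cytosolic gene that fell, the nearest being Cars at −0.29; the difference between genes was not tested.

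The scaffold genes differed among themselves. Eef1e1 (also called AIMP3, chromosome 13, 38644207 to 38659058) encodes a small subunit that contacts the methionyl enzyme. It had 4.91, 4.89 and 5.79 CPM in trametinib libraries and 13.6, 14.6 and 10.8 CPM in vehicle libraries. This was the largest fall of the 39 genes, 2.50-fold (log2 fold change −1.32, SE 0.14, adjusted p 0.000459). Aimp2, which bridges the enzymes of the complex, had 3.25, 3.601 and 3.40 CPM with trametinib and 5.72, 5.91 and 4.11 CPM with vehicle (log2 fold change −0.62, SE 0.18, adjusted p 0.0251). The Aimp2 call was lost when any single library other than vehicle replicate 3 was left out (adjusted p up to 0.0950; the alternatives spanned 0.00278 to 0.0950). Reads could also be shared across strands there, since 29.4% of its exonic length overlaps Eif2ak1 on the opposite strand. Aimp1, which binds tRNA and yields a secreted cytokine, had 20.99, 19.1 and 11.1 CPM with trametinib and 25.8, 23.4 and 14.3 CPM with vehicle. Replicate 3 was the lowest library of both groups and the groups overlapped (log2 fold change −0.31, SE 0.31, adjusted p 0.483). Aimp1 passed as lower once the replicate number was a block (adjusted p 0.0142; the alternatives spanned 0.0142 to 0.843).

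Outside the complex 11 of 12 cytosolic enzyme genes fell. Farsb, the beta subunit of the phenylalanyl enzyme (chromosome 1, 78417975 to 78488897), had 17.9, 19.8 and 20.6 CPM in trametinib libraries and 39.9, 43.9 and 37.0 CPM in vehicle libraries (log2 fold change −1.05, SE 0.09, adjusted p 0.000246). Its partner subunit gene Farsa fell less, at 23.7 ± 1.48 CPM with trametinib and 32.3 ± 2.06 CPM with vehicle (SD, n = 3 each; log2 fold change −0.45, adjusted p 0.00443). The 2 genes encode subunits of a single enzyme, and their 95% intervals, −1.26 to −0.84 for Farsb and −0.64 to −0.25 for Farsa, did not overlap; the difference itself was not tested. Exons of Farsb overlap Sgpp2 on the opposite strand over 9.5% of their length. Yars, the tyrosyl enzyme (chromosome 4, 129189760 to 129219607), had 25.0, 27.5 and 28.6 CPM with trametinib and 51.9, 52.9 and 51.1 CPM with vehicle (log2 fold change −0.94, SE 0.08, adjusted p 0.000178). Every trametinib library of Yars stood well under every vehicle library. Vars, the valyl enzyme, Gars, the glycyl enzyme of both compartments, and Sars, the seryl enzyme, came next with log2 values of −0.86, −0.79 and −0.71 (adjusted p of 0.000789, 0.000268 and 0.000459). Hars, Nars and Tars, the histidyl, asparaginyl and threonyl enzymes, fell by 0.62, 0.54 and 0.51 on the log2 scale. The smallest falls were those of Aars, the alanyl enzyme (277 ± 20.1 CPM with trametinib and 358 ± 16.8 CPM with vehicle, log2 fold change −0.37, adjusted p 0.00942), and Cars, the cysteinyl enzyme (80.1 ± 3.08 and 98.2 ± 1.04 CPM, log2 fold change −0.29, adjusted p 0.00586). For Aars, 14.3% of the exonic length is shared with Exosc6 on the same strand.

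Wars went the other way. This gene (chromosome 12, 108860030 to 108894174) had 172, 190 and 139 CPM in trametinib libraries and 127, 125 and 128 CPM in vehicle libraries. All trametinib libraries were higher, with a wide spread among them and a narrow one among the vehicle libraries. The rise was 1.32-fold (log2 fold change 0.40, SE 0.11, adjusted p 0.0201). The call was lost when trametinib replicate 1, trametinib replicate 2, vehicle replicate 1 or vehicle replicate 2 was left out (adjusted p of 0.0769, 0.0665, 0.0593 and 0.0651; the alternatives spanned 0.00240 to 0.0769). Its mitochondrial counterpart Wars2 had 4.85, 6.13 and 5.96 CPM with trametinib and 6.51, 6.14 and 6.16 CPM with vehicle, a change under the threshold (log2 fold change −0.15, adjusted p 0.418).

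**Figure D2:**
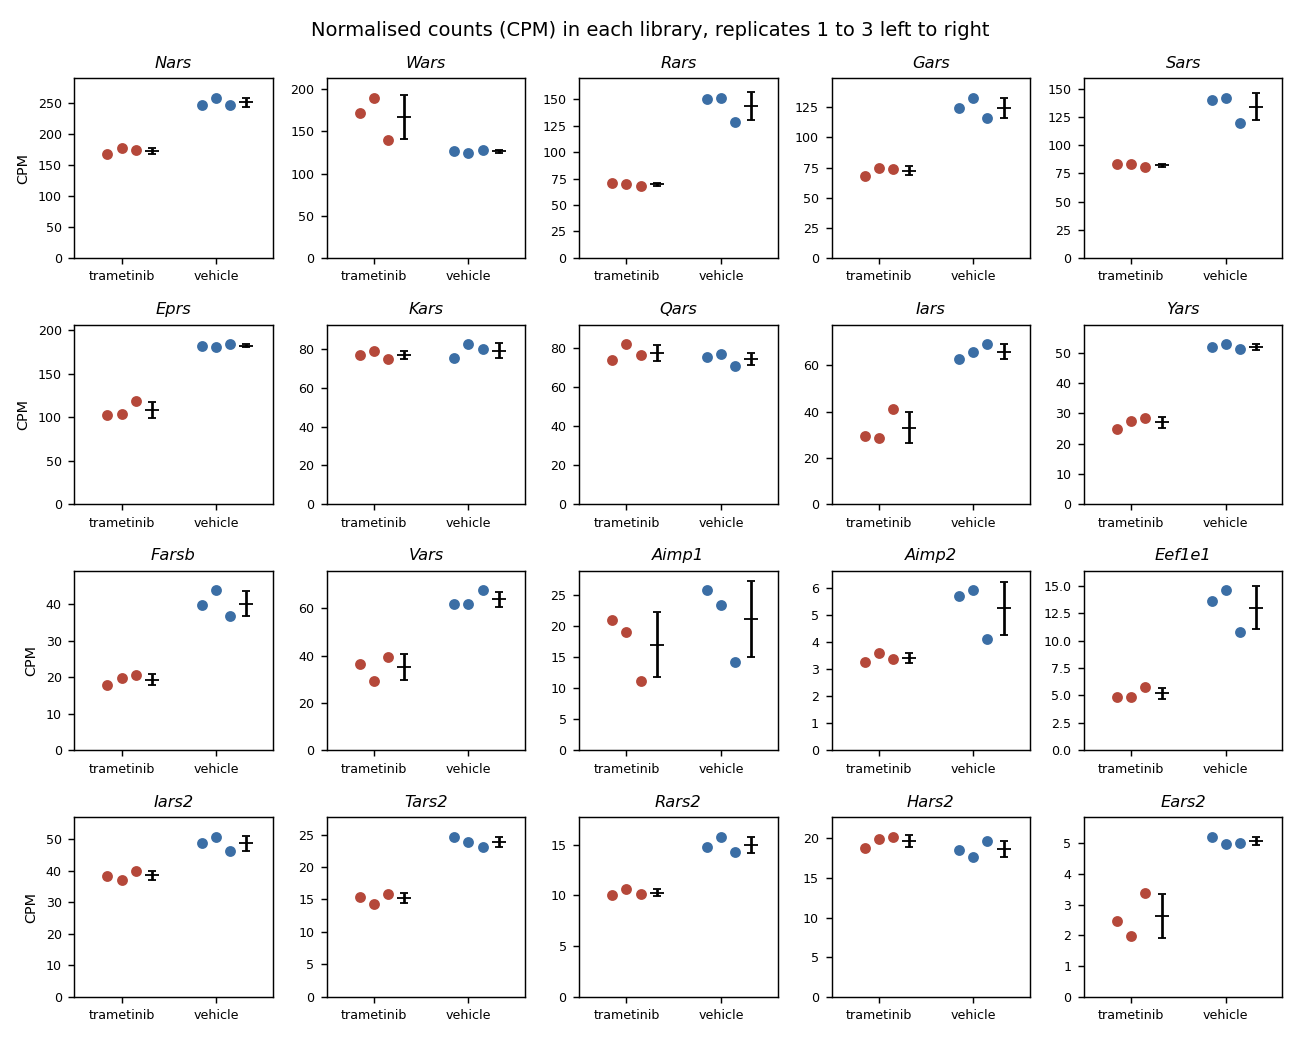
Normalised CPM (y axis, from 0) in each trametinib + LPS library (red, left) and vehicle + LPS library (blue, right) for 20 of the 39 genes, with the mean and SD in black (n = 3 each). Rars, Farsb, Yars and Eef1e1 show separate groups, Kars, Qars and Aimp1 overlapping ones, and Wars alone among these has all trametinib libraries above all vehicle libraries.

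Divisions of the cytosolic genes by enzyme class, complex or control had medians close to each other. The 10 enzymes of class I, the fold that binds ATP through a Rossmann domain, had a median log2 fold change of −0.72 with 8 lower and 1 higher, and the 11 genes of class II a median of −0.62 with 10 lower (Eprs has a catalytic part of each class and is in both). Of 11 genes of the multisynthetase complex, scaffolds included, 8 fell (median −0.63). Mouse ATF4 targets are a further division: of 12 cytosolic synthetase genes listed as ATF4 targets 11 fell and 1 rose (median −0.63), and of the 8 others 6 fell and none rose (median −0.62). Of the GAIT genes, Syncrip, an RNA-binding protein, fell with Eprs (50.2 ± 7.19 CPM with trametinib and 77.6 ± 5.99 CPM with vehicle, adjusted p 0.00294). The other 2, Rpl13a and Gapdh, did not pass (adjusted p of 0.708 and 0.541). Each has many processed copies in the genome, so their counts are uncertain, and Gapdh was at 10.2 CPM in trametinib replicate 1 against 43.9 CPM in each of the other trametinib libraries.

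Promoters of the cytosolic genes were read for the letters that ATF4 and its C/EBP partners are known to bind, because these genes moved together. RefSeq promoter sequences on GRCm38.p6 (the mm10 assembly), from 250 bases before to 50 after the annotated start, were at hand for 30 of the 39 genes, in 32 promoters. The core TGATGNAA, on either strand, stood in 5 of 13 cytosolic promoters, in 0 of 4 scaffold promoters and in 0 of 15 mitochondrial promoters, against 3.97% of all 32851 promoters of the same length. The promoters of Cars, Hars, Lars, Nars, Rars, Vars, Wars, Hars2 and Pars2 were not used here. The 5 that hold the core are shown 5′ to 3′ on the strand of the gene, with the matches in capitals (TTGCATCA and TTTCATCA are matches read from the other strand). They lie at chr4:129189653-129189952 on the plus strand for Yars, chr6:55037751-55038050 on the plus strand for Gars, chr8:111033592-111033891 on the plus strand for Aars, chr13:49681880-49682179 on the plus strand for Iars and chr15:11399609-11399908 on the minus strand for Tars.
Yars: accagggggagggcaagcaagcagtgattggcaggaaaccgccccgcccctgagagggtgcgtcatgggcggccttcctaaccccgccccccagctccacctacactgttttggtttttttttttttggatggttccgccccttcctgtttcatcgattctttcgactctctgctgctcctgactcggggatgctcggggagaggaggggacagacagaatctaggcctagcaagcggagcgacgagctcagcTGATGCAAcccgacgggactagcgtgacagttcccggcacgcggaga
Gars: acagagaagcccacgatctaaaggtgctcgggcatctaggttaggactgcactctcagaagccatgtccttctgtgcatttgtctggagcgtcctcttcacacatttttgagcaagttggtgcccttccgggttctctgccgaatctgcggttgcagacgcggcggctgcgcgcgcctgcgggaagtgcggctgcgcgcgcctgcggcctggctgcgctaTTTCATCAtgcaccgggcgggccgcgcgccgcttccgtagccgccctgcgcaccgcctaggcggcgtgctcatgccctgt
Aars: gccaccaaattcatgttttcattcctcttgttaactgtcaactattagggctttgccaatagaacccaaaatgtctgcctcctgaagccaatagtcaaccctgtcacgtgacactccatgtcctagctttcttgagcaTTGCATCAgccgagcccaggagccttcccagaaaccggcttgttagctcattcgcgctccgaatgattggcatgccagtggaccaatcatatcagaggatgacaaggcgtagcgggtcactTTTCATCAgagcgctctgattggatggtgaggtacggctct
Iars: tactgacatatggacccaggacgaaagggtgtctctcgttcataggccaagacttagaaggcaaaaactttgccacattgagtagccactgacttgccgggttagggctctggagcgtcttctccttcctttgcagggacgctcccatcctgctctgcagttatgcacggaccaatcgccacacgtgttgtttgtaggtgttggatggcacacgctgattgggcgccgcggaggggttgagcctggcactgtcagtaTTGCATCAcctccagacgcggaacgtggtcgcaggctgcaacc
Tars: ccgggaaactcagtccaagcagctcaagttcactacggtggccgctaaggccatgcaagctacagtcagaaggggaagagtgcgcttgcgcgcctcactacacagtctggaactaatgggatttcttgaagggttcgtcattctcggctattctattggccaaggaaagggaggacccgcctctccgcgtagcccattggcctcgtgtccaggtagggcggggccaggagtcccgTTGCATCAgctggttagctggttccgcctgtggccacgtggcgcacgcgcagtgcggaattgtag

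All 5 of these genes are on the list of ATF4 targets and all fell, with log2 fold changes of −0.37 to −0.996 and a median of −0.79. Of all 20 cytosolic synthetases 17 fell. The 8 cytosolic genes whose promoter window lacked the core also fell, except Kars and Qars. These 8 had a median of −0.60 and a range of −1.05 to 0.06, so the ranges of the genes with and without the core overlapped. Counted from the RefSeq start site, the match begins at position 4 in Yars, 8 in Iars, −30 in Gars and −15 in Tars, whereas Aars holds 2 matches, at −112 and 10. The E-box CACGTG is bound by MYC and related factors. It stood in 4 of 13 cytosolic promoters (Farsb, Aars, Iars and Tars), 0 of 4 scaffold promoters and 1 of 15 mitochondrial promoters (Ears2). Of all promoters, 7.15% held it. The interferon-stimulated core (TTTC, any 2 bases, TTTC) was found in the Qars promoter alone, 1 of 13 cytosolic promoters, against 3.44% of all promoters. The promoter of Wars was not among those searched. The STAT site TTCNNNGAA was found in 2 of 13 cytosolic (Aars and Kars), 1 of 4 scaffold (Eef1e1) and 1 of 15 mitochondrial promoters (Nars2). Of all promoters, 8.30% held this site. In these promoters no match of one motif overlapped a match of another. A match describes letters in the window, not binding.

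The mitochondrial genes were more varied. Ears2, the glutamyl enzyme, which also charges the glutamine tRNA before its conversion, had 2.48, 1.99 and 3.40 CPM in trametinib libraries and 5.22, 4.97 and 5.03 CPM in vehicle libraries (log2 fold change −0.95, SE 0.20, adjusted p 0.00682). Tars2, the threonyl enzyme, had 15.4, 14.3 and 15.8 CPM with trametinib and 24.7, 23.8 and 23.1 CPM with vehicle (log2 fold change −0.65, SE 0.08, adjusted p 0.000673). In both genes the groups were clearly apart. Rars2, the arginyl enzyme, averaged 10.3 ± 0.318 CPM with trametinib and 15.0 ± 0.774 CPM with vehicle (log2 fold change −0.54, adjusted p 0.00261), and Iars2, the isoleucyl enzyme, 38.5 ± 1.42 and 48.7 ± 2.24 CPM (log2 fold change −0.34, adjusted p 0.00677). For Iars2, 24.2% of the exonic length overlaps genes on the opposite strand. Mars2 and Yars2, the methionyl and tyrosyl enzymes, also fell (log2 fold changes −0.86 and −0.56; adjusted p of 0.0211 and 0.0195). The Mars2 call was lost without trametinib replicates 1 or 2 or vehicle replicates 1 or 2 (adjusted p up to 0.0870, from 0.00663 over the alternatives), and the Yars2 call without trametinib replicate 1 or vehicle replicates 1 or 2 (adjusted p up to 0.0817, from 0.00500).

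The other 10 mitochondrial genes did not pass, and their log2 fold changes lay between −0.31 (Sars2) and 0.11 (Fars2). Lars2, the leucyl enzyme, had 8.63, 8.81 and 8.30 CPM in trametinib libraries and 8.75, 8.65 and 9.19 CPM in vehicle libraries. For Lars2 the 95% interval of the log2 fold change was −0.27 to 0.18, which holds no fall as large as the cytosolic median. Hars2, whose start overlaps that of Hars on the opposite strand, had 18.8, 19.9 and 20.2 CPM with trametinib and 18.5, 17.7 and 19.7 CPM with vehicle (log2 fold change 0.08, adjusted p 0.498), while Hars fell to 25.5 ± 2.19 CPM with trametinib, against 39.2 ± 1.53 CPM with vehicle. Fars2 had 10.6, 11.5 and 10.9 CPM with trametinib and 10.4, 10.5 and 9.67 CPM with vehicle. Its groups were apart by a narrow margin and it missed the threshold (log2 fold change 0.11, adjusted p 0.409). Aars2, Cars2, Nars2, Pars2 and Vars2 had log2 fold changes between −0.21 and 0.08. Fewer reads fell on the mitochondrial genes, which held 27 to 911 counts per library, and the standard error of the log2 fold change ranged from 0.07 to 0.24, against 0.06 to 0.13 for the cytosolic synthetases, so a change of a given size is harder to detect in the rarest of them.

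Set side by side for each amino acid, the cytosolic gene had the lower log2 fold change in 12 of 16 pairs, and the median difference, cytosolic minus mitochondrial, was −0.39. The ratio of the cytosolic to the mitochondrial level per length, taken within each library, was lower in all trametinib than in all vehicle libraries in 10 pairs, higher in 1 (Wars over Wars2) and overlapping in 5. Lars over Lars2 was 10.8, 10.5 and 12.0 in trametinib libraries and 17.2, 17.3 and 17.3 in vehicle libraries. Hars over Hars2 was 2.25, 2.13 and 2.42 with trametinib and 3.67, 4.04 and 3.35 with vehicle. In the pairs Eprs with Ears2, Mars1 with Mars2, Tars with Tars2 and Wars with Wars2 the mitochondrial gene had the lower log2 fold change. These ratios describe the pairs and were given no test.

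**Figure D3:**
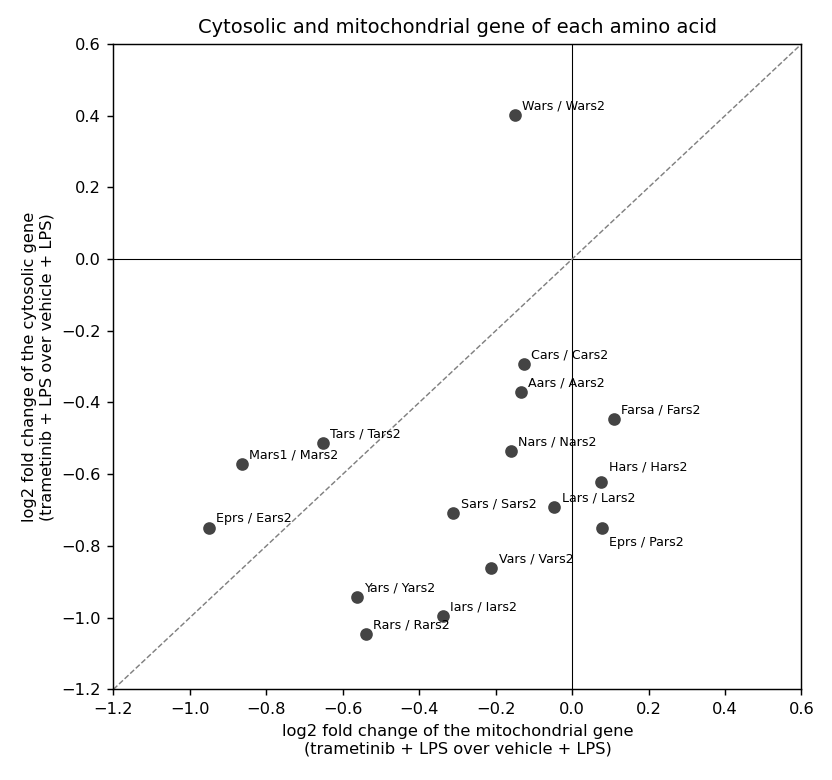
Log2 fold change of the cytosolic gene (y axis) against that of the mitochondrial gene (x axis) for the 16 amino acids with both on the list, trametinib + LPS over vehicle + LPS. Points under the dashed line of equality, 12 of 16, are pairs whose cytosolic gene had the lower log2 fold change. Eprs stands in 2 pairs.

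Levels of different genes were compared per length, in TPM computed from the exonic length of each gene. These values carry no TMM scaling, so their sums are given for each group as a description with no test, while a ratio taken within a library does not depend on scaling. The 20 cytosolic synthetases together made up 1007 ± 64.0 TPM in trametinib libraries and 1501 ± 32.2 TPM in vehicle libraries (SD, n = 3 each), the 3 scaffold genes 22.3 ± 1.35 and 38.6 ± 6.46 TPM, and the 16 mitochondrial synthetases 92.7 ± 10.0 and 119.6 ± 1.97 TPM. Summed, the cytosolic set was 11.0, 11.3 and 10.4 times the mitochondrial set in trametinib libraries and 12.5, 12.4 and 12.7 times in vehicle libraries. By exonic length, the order at the top differed between groups. With trametinib Wars stood first at 161 ± 13.3 TPM, before Nars at 132 ± 10.0, Aars at 99.2 ± 3.41, Gars at 77.2 ± 7.14 and Rars at 71.7 ± 4.40 TPM. This order depends on the length used. Exons of Nars cover 4355 bases and those of Wars 3447, but their longest transcripts have 2745 and 2878. Mean CPM with trametinib was 173 for Nars and 167 for Wars, so Wars would not lead by the longest transcript. With vehicle Nars stood first at 204 ± 7.29 TPM, followed by Rars at 157 ± 8.02, Gars at 142 ± 4.49, Aars at 137 ± 1.56 and Wars at 130 ± 7.27 TPM. Gars, Aars and Wars, neighbours in that vehicle order, lay within about their spread of each other. Each cytosolic synthetase was above every mitochondrial one in mean level in the vehicle libraries, where the lowest cytosolic gene, Farsa, had 25.2 TPM and the highest mitochondrial gene, Iars2, 19.4 TPM. In trametinib libraries Yars, at 15.2 ± 1.90 TPM, lay beside Hars2 at 15.3 ± 1.49 TPM. That closeness also depends on the length, which is 5943 exonic bases for Yars and 4279 for Hars2. The longest transcript is shorter for Yars (2909 bases) than for Hars2 (3336), and mean CPM was higher for Yars (27.0 against 19.7).

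**Figure D4:**
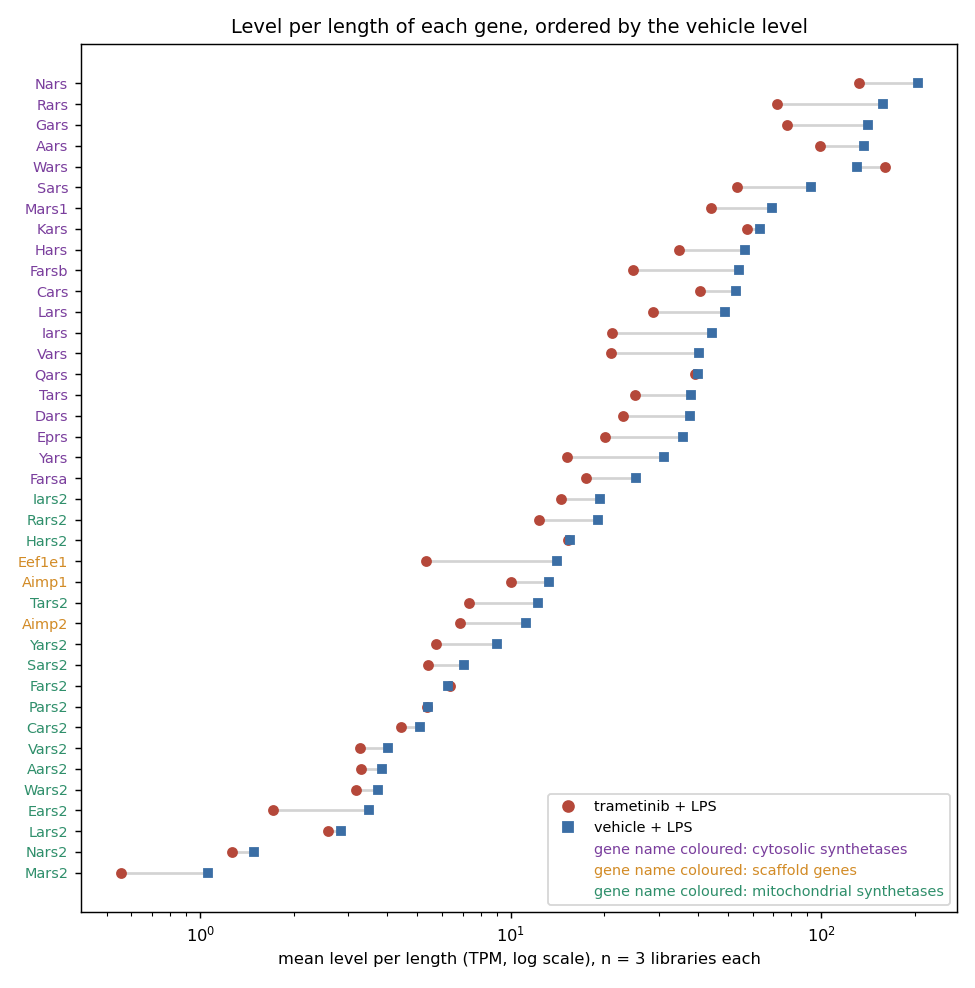
Mean level per length (x axis, TPM, log scale) of each gene (y axis, ordered by the vehicle level) in trametinib + LPS (red circles) and vehicle + LPS (blue squares) libraries, n = 3 each. With exonic length as used here, Wars is the fifth gene from the top by the vehicle level and the first by the trametinib level. The mitochondrial genes fill the lower part.

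Genes that act next to the synthetases were counted in 5 lists. Among all 11286 genes tested, 18.4% fell and 15.8% rose, and no list was tested against these shares. Of 15 tested companions of tRNA charging, 1 fell (median log2 fold change −0.17). Qrsl1, the catalytic subunit of the enzyme that makes glutaminyl-tRNA in mitochondria, had 3.96, 3.49 and 4.29 CPM in trametinib libraries and 7.57, 6.75 and 5.62 CPM in vehicle libraries (log2 fold change −0.76, adjusted p 0.00637). Its subunit genes Gatb and Gatc did not pass (adjusted p 0.0930 and 0.0501), but Gatc passed as lower with the replicate block (adjusted p 0.0281; the alternatives spanned 0.0211 to 0.166). Tarsl2, a second cytosolic threonyl enzyme, was near 1 CPM and did not pass (adjusted p 0.656). With the replicate block 4 companions fell, and 3 fell without trametinib replicate 3. Over all genes, fallers numbered 2525 with the block and 1957 without that library, against 2082 in the main comparison.

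Of 21 tested genes of tRNA maturation and export, 10 fell, 1 rose (Clp1, a kinase of RNA ends) and 10 did not pass (median −0.38). The shares over all genes tested were 18.4% lower and 15.8% higher. Xpot, the exporter of tRNA from the nucleus, had 75.7, 85.5 and 87.4 CPM in trametinib libraries and 131, 129 and 122 CPM in vehicle libraries (log2 fold change −0.62, SE 0.07, adjusted p 0.000560). Elac2, which trims the tRNA tail, and Pop1, a subunit of RNase P, also fell (log2 fold changes −0.58 and −0.70; adjusted p of 0.00121 and 0.00658). The fallers of this list were 5, 6 and 5 without trametinib replicate 1, trametinib replicate 2 and vehicle replicate 2, and none rose without trametinib replicate 2 or vehicle replicate 1. Of 9 factors that deliver charged tRNA or move the ribosome, 4 fell and none rose (median −0.22). Eef1g, a subunit of the cytosolic exchange factor, fell at a log2 fold change of −0.34 (adjusted p 0.00815), as did the mitochondrial elongation factors Gfm1 at −0.42 and Tufm at −0.40 (adjusted p of 0.00865 and 0.0103). Eef1a1, the main carrier of charged tRNA in the cytosol, was at 3256 ± 126 CPM with trametinib and 3650 ± 109 CPM with vehicle and did not pass (adjusted p 0.0921). With the replicate block it passed as lower (adjusted p 0.0251; the alternatives spanned 0.0251 to 0.280), and 6 of the 9 factors fell. Eef1a1 has many processed copies, so its count is uncertain.

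Genes of the ATF4 amino acid response fell beside the synthetases: 13 of 21 tested fell, 1 rose (Ddit4, an inhibitor of mTOR) and 7 did not pass (median −0.47). The shares over all genes tested were 18.4% lower and 15.8% higher. Atf4 itself had 252, 262 and 235 CPM in trametinib libraries and 365, 361 and 306 CPM in vehicle libraries (log2 fold change −0.46, SE 0.09, adjusted p 0.00527). Asns, asparagine synthetase, had 43.1, 43.5 and 41.8 CPM with trametinib and 107, 115 and 97.2 CPM with vehicle (log2 fold change −1.32, SE 0.08, adjusted p 9.8e-05). Aldh18a1, of proline synthesis, and Slc7a5, the gene of a transporter of large neutral amino acids, fell too (log2 fold changes −1.08 and −1.37; adjusted p of 0.000163 and 0.000212). Ddit3, a target of ATF4 under stress whose exons overlap those of Mars1 on the opposite strand, had 84.0 ± 10.3 CPM with trametinib and 77.8 ± 7.09 CPM with vehicle and did not pass (adjusted p 0.437). Without trametinib replicate 3, 2 genes of this list rose.

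Of 14 genes of the eIF2 kinases and their partners, 5 fell, 1 rose (Impact, an inhibitor of the amino acid sensor GCN2) and 8 did not pass (median −0.18). The shares over all genes tested were 18.4% lower and 15.8% higher. Eif2ak4, the gene of GCN2, which senses uncharged tRNA, had 18.0, 17.8 and 18.4 CPM with trametinib and 22.2, 17.9 and 21.1 CPM with vehicle, with no call (log2 fold change −0.17, adjusted p 0.191). The falls were in subunits of eIF2 and of its exchange factor eIF2B and in the GCN2 coactivator Gcn1l1. Eif2b3 fell to 3.28 ± 0.561 CPM with trametinib, against 9.15 ± 0.674 CPM with vehicle (SD, n = 3 each; adjusted p 0.000375), and Eif2s1 and Eif2b1 had log2 fold changes of −0.49 and −0.45 (adjusted p of 0.00184 and 0.00936). Fallers numbered 3 without trametinib replicate 1 or vehicle replicate 1. Impact was the riser in the full comparison, and no gene of the list rose without trametinib replicate 1 or 2 or vehicle replicate 1 or 2, while 2 rose with the replicate block or without vehicle replicate 3. Myc, the gene of a factor that drives many biosynthetic genes, was at 0.710, 0.107 and 0.334 CPM with trametinib and 1.07, 1.62 and 0.270 CPM with vehicle, overlapping levels of few reads (adjusted p 0.194).

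**Figure D5:**
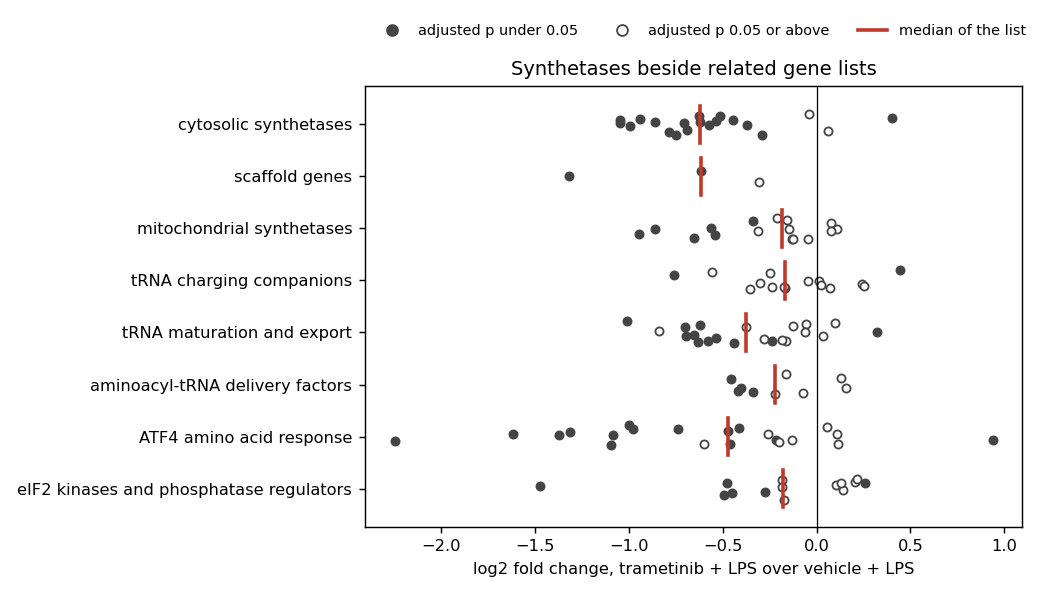
Log2 fold change (x axis, trametinib + LPS over vehicle + LPS) of each tested gene in the 3 member groups and the 5 related lists (y axis); filled points passed an adjusted p of 0.05 and red bars are list medians. The cytosolic synthetases and scaffold genes have the lowest medians, −0.62 each, and the single gene with the largest fall is in the ATF4 amino acid response.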

How the data were processed

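RNA of 6 libraries of mouse peritoneal macrophages was sequenced after ribosomal RNA depletion. The authors deposited a table of raw counts per gene. Per the submitters' processing notes, the mm10 build and these tools were used: featureCounts 1.6.4, HISAT2 2.1.0, R 3.6.0, DESeq2 1.24.0. For the gene annotation, strand setting and handling of multi-mapping reads, the status is "not given in the sources used here". Without a known strand setting, reads of genes that overlap on opposite strands cannot be told apart.

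From 25354 entries, 310 exact repeats were removed. Of the 25044 identifiers left, 25033 were found in GENCODE M21 (mm10), which gave symbols, positions and exonic lengths. Groups came from the labels. Genes passing filterByExpr were scaled by TMM and compared with edgeR 4.0.16 (R 4.3.3; quasi-likelihood test, robust, group as the only term), with Benjamini-Hochberg adjustment across the whole table and a threshold of 0.05. SE was taken as the absolute log2 fold change over the root of F, and 95% intervals use it with the test's degrees of freedom. TPM are counts per exonic kilobase scaled to a fixed library sum, with no TMM factor. The procedure was tested on simulated data.

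Deviations from group means correlated at 0.339, 0.393 and 0.285 between libraries of the same replicate number and at −0.0724 to −0.223 otherwise. By this correlation (the labels state no pairing) the numbers pair the samples; the main comparison is unpaired and the replicate block is an alternative, as are DESeq2 1.42.0, limma-voom (limma 3.58.1), other scalings and filters, and leaving out each library. Chi-square per gene between replicates was 6.13 to 29.8, so none was a copy of another. Members and lists were chosen with earlier results of these data known; no list was tested as a set. The rule for named genes covers all members, the 3 genes with the smallest p in each other list, and 8 genes whether changed or not, not all of which are reported here. Clp1, Ddit4, Impact, Gatb, Gatc, Gcn1l1, Eef1a1 and the GAIT genes were named after their values were seen. Python 3.11.15, NumPy 2.4.6, pandas 2.3.3, SciPy 1.17.1 and matplotlib 3.10.9 were also used.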

Additional observations from a re-analysis of the deposited data

How the results depend on the processing

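The 17 falls among cytosolic synthetases were counted under every alternative run, and no gene of the 39 that passed changed direction. DESeq2's size factors, TMM leaving out mitochondrial genes and the 10 genes of highest abundance, both other filters, DESeq2 and limma-voom changed the call of none of the 39 genes. The replicate block changed 1 call, that of Aimp1, which became lower. Leaving out single libraries ended a call in 16 cases and changed none in 218, the 16 all being for Wars, Aimp2, Mars2 and Yars2. Without single libraries the cytosolic risers numbered 0 to 1, the scaffold fallers 1 to 2 and the mitochondrial fallers 4 to 6. The cytosolic median log2 fold change ranged from −0.694 (without trametinib replicate 3) to −0.579 (without trametinib replicate 1), with the cause not tested. Among all genes, fallers numbered 1360 to 2453 and risers 1068 to 2210 in the refits without single libraries, against 2082 and 1787 with all libraries. With the replicate block and all libraries, fallers numbered 2525 and risers 2312. The lowest numbers came without trametinib replicate 1 (1360 and 1068), and risers also moved by over 1.5 times without vehicle replicates 1 and 2 (1131 and 1165).

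In the related lists, delivery factors had 6 fallers under the replicate block, against 4 without it, and fallers among charging companions numbered 2 with limma-voom, 4 with the replicate block and 1 to 3 without single libraries. Without single libraries, tRNA maturation had 5 to 12 fallers and 0 to 1 risers, the ATF4 response 1 to 2 risers, and the eIF2 list 3 to 6 fallers and 0 to 2 risers, with 2 risers under the replicate block. The cytosolic to mitochondrial ratio of levels was 10.8 with trametinib and 12.5 with vehicle when the longest transcript gave the length, against 10.9 and 12.5. The number of reads limits the rarest mitochondrial genes, such as Mars2 with 27 to 65 counts per library.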
